A study of Mus musculus with 5 samples.

Results

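The genes described here are 35 transcripts of glycolysis, lactate handling and the hypoxia response, read by RNA-seq in the lymphatic endothelium (LECs) of mouse lymph nodes. They were taken by symbol, for their known roles but with earlier results of these data known, from the 27843 genes of the count table. All 35 passed the filter on low counts, as 15874 genes of the table did. The KO group was 2 libraries from Ccl19 Cre Rankl flox/flox mice, which the labels call a stromal RANKL-conditional knock out. The WT group was 3 libraries from Rankl flox/flox littermates, so every animal carried the floxed allele and the labelled difference is the Cre. All mice were 8 weeks old on the C57BL/6 background. Ccl19-Cre acts in Ccl19-expressing stroma, so the deletion was aimed at the cells that supply RANKL to LECs and not at the LECs themselves. The number of animals behind each library is not stated. The p-values therefore measure only the spread between these 5 libraries, which may be partly technical.

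Library totals ran from 52839375 to 70171307 counts. Tnfsf11, which encodes RANKL, stood at 0.164 and 0 CPM (counts per 1000000 counts of the library, its total scaled by the TMM factor) in KO1 and KO2, against 0.38, 0.208 and 0.173 CPM in WT1, WT2 and WT3. The difference did not pass the test (adjusted p = 0.41), and because the deletion lies in other cells these few reads do not check the genotype. The sort was for CD31 and podoplanin and against CD45 and TER119. Pecam1 (CD31) was at 1347 and 1312 CPM in KO libraries and at 1321, 1337 and 1331 CPM in WT libraries, and Ptprc (CD45) was between 2.15 and 2.89 CPM in all 5. Pdpn (podoplanin) was at 125 and 100 CPM in KO libraries and at 104, 88.4 and 97.3 CPM in WT libraries. The lymphatic marker Prox1 was present in every library but lower in KO (adjusted p = 0.019). It stood at 884 and 852 CPM in KO libraries, against 1577, 1384 and 1416 CPM in WT libraries. Of 12 LEC identity genes, Prox1 alone passed the test as lower, while 3 passed as higher (Ccl21a, Mmrn1 and Sox18).

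Glycolysis splits glucose into pyruvate and yields ATP without oxygen, and endothelial cells are known to draw much of their energy from it even when oxygen is at hand. Lactate dehydrogenase turns pyruvate into lactate, which leaves or enters the cell through monocarboxylate transporters. When oxygen falls, the prolyl hydroxylases encoded by the Egln genes no longer mark the HIF alpha subunits for destruction by the VHL ubiquitin ligase, and HIF then raises many of the glycolytic genes together with targets such as Adm, Bnip3 and Car9.

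Of the 35 genes, 5 were higher in KO and 0 were lower in edgeR's quasi-likelihood test, with the adjusted p (Benjamini-Hochberg, over every gene tested) required to be below 0.05. The 5 were the oxygen sensor Egln3, the lactate exporter Slc16a3 and the glycolytic genes Pfkfb4, Aldoa and Tpi1. Over all genes tested, 3.25% were called higher and 3.99% lower, or 7.24% in either direction. limma-voom called 5 of the 35 higher and 0 lower, with 3.44% and 4.14% of all genes. DESeq2 called 8 higher and 4 lower, with 8.37% and 10.1% of all genes. An offset for gene length and GC content left 3 higher and 0 lower, with 2.65% and 2.17% of all genes, and 55% of all its calls were higher, against 44.9% without it. At an unadjusted p under 0.05, 18 of the 35 genes differed, 14 of them higher and 4 lower in KO, against 12.8% higher and 13.6% lower of all genes tested. A positive log2 fold change was found for 26 of the 35 genes (74.3%) and for 49.9% of all genes tested. The median log2 fold change (KO minus WT) of the 35 was 0.24, and that of all genes tested was 0.00.

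Both KO libraries lay above all WT libraries for 19 of the 35 genes, against 22.8% of all genes tested, and below all of them for 4, against 22.5%. Each KO library showed the shift on its own, with a median log2 ratio to the WT mean of 0.22 in KO1 and 0.21 in KO2. On the log scale, the KO libraries differed from each other in Egln3, Eno1, Slc16a1 and Car9 by more than the WT libraries did. In sorted pools, fewer cells of a type and less RNA per cell cannot be told apart. The 5 calls were all lost without WT1, without WT2 and without WT3, where 0 genes of the set passed, although the folds moved little. Most calls over the whole table were lost there too. In these fits 135 of 15308, 78 of 15429 and 2 of 15613 genes tested were called higher, against 516 of 15874 with all libraries. Lower calls were 131, 95 and 9, against 634.

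**Figure D1:**
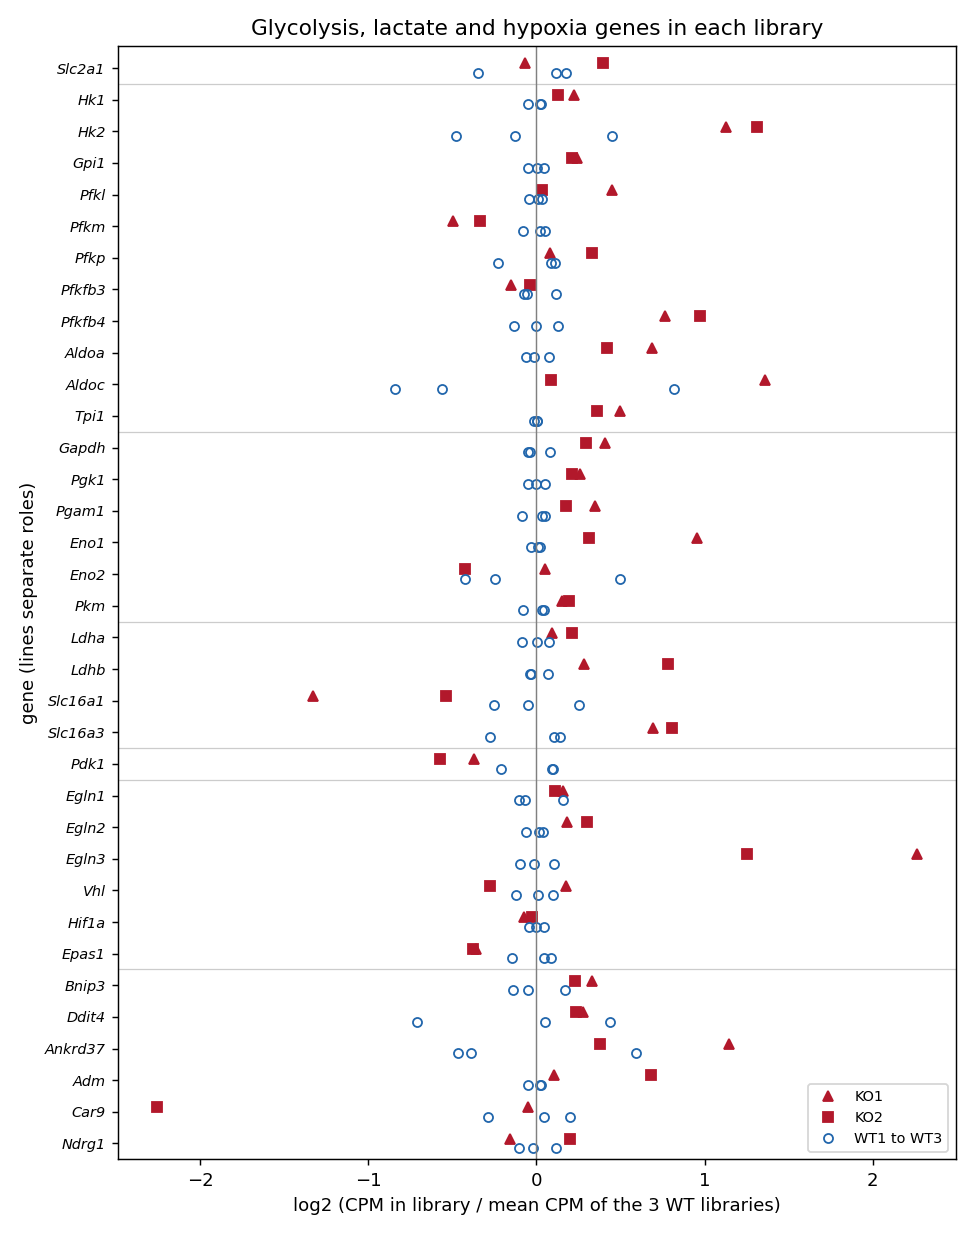
Level of each of the 35 genes in each library (horizontal axis, log2 of CPM over the mean CPM of the 3 WT libraries; KO libraries as filled red symbols above, WT libraries as open blue circles below; genes run down the page by role). Both KO libraries lie right of all WT libraries for 19 genes and left of them for 4 (Pfkm, Slc16a1, Pdk1 and Epas1).

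To set the called genes beside their promoters, the 250 bases before each annotated start were searched for ACGTG and GCGTG, the core letters of the hypoxia response element, on both strands. Of the 35 genes, 33 had a window in the RefSeq table (GRCm38.p6), and 29 of these (87.9%) held a core in at least 1 window. Over the genes tested here that had a window, the share was 59%, and over all 32851 windows it was 38.6%. The genes were chosen for glycolysis and hypoxia, some have several windows, and these letters are common in CpG-rich promoters, so the share is a description only. Of the 5 genes that rose, Egln3 and Aldoa (in the window shown) held 1 core, Slc16a3 held 2 and Pfkfb4 held 1, while Tpi1 held 0. The stretches below are shown for the called genes with a core in the printed part, and for Tpi1 as the one without. They run 5′ to 3′ on the gene's strand, leave out annotated exon bases, and have the cores, read on either strand, in capitals. Where a gene had several windows, the window with the longest stretch free of its exons was taken. The Aldoa and Slc16a3 stretches lie inside the annotated gene, before a start downstream of its outermost end.
Egln3 promoter, chr12:54203875-54204124, minus strand: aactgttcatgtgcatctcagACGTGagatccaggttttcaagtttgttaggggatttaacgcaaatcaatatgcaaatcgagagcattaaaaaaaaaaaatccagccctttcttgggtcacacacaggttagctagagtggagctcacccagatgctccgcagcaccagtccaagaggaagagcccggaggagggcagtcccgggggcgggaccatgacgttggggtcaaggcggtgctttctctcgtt
Slc16a3 promoter, chr11:120948817-120949052, plus strand: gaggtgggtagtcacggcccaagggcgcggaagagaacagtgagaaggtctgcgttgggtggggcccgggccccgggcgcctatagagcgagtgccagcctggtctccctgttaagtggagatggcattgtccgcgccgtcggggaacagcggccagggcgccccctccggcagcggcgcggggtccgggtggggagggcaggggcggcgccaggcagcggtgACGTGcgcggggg
Aldoa promoter, chr7:126799255-126799504, minus strand: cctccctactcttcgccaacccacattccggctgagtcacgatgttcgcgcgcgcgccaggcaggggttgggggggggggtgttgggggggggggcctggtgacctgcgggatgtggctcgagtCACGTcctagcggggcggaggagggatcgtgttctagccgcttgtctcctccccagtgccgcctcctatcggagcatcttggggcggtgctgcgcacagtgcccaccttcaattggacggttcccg
Tpi1 promoter, chr6:124814297-124814408, minus strand: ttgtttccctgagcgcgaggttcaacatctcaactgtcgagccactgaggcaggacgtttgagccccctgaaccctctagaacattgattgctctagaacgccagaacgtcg

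The Egln3 core lies in the far part of the stretch, well before the start site. The Aldoa core stands near the middle of its window. In Slc16a3 the printed core is close to the end, and its other core lies in the part of the window that is left out. The Pfkfb4 core likewise lies wholly in the part left out, so that window is not shown. A core is not by itself a binding site, and HIF binding was not measured.

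Among the oxygen-sensing genes, Egln3, which encodes the prolyl hydroxylase PHD3 and is itself a known HIF target, had the largest change of the set. Whether HIF had a part in that change was not tested. Egln3 (ENSMUSG00000035105, chromosome 12, 54178981 to 54203860, mm10) stood at 13.2 and 6.53 CPM in KO1 and KO2, against 2.72, 2.95 and 2.56 CPM in WT1, WT2 and WT3. The groups did not overlap, KO1 was far above KO2, and the WT libraries were close together. Its log2 fold change was 1.85 ± 0.30 (SE, adjusted p = 0.022), or 3.6-fold. Without KO1 it was 1.25 and still passed, and it was 2.26 without KO2. It lost its call without WT1 (1.84), without WT2 (1.90) and without WT3 (1.80). The counts behind it were 724 and 380 reads in KO libraries and 133 to 193 reads in WT libraries.

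The other prolyl hydroxylases moved less. Egln2, which encodes PHD1, stood at 64.9 and 70.7 CPM in KO libraries, against 55, 58 and 58.9 CPM in WT libraries, which did not overlap but did not pass (log2 fold change 0.24 ± 0.09, adjusted p = 0.13). Egln1, which encodes PHD2, the main oxygen sensor of most cells, stood at 59.7 and 57.8 CPM in KO libraries and at 59.8, 51.1 and 49.9 CPM in WT libraries, with overlap (0.13 ± 0.11, adjusted p = 0.48). Vhl, the substrate receptor of the ubiquitin ligase, also overlapped, at 21.6 and 15.8 CPM in KO libraries, against 19.3, 20.5 and 17.6 CPM in WT libraries (log2 fold change -0.04 ± 0.16, adjusted p = 0.91). Leaving out WT2 turned its sign (0.01), as did leaving out KO2 (0.17).

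Neither HIF alpha subunit passed the test. Hif1a, which encodes HIF-1 alpha, stood at 304 and 315 CPM in KO1 and KO2, against 330, 320 and 311 CPM in WT1, WT2 and WT3, with overlap. Its log2 fold change was -0.05 ± 0.09 (adjusted p = 0.76), and 0.06 with the length and GC offset. Epas1, which encodes HIF-2 alpha and is known for its high level in endothelium, stood at 79.2 and 78.2 CPM in KO libraries, against 108, 105 and 91.9 CPM in WT libraries. Both KO libraries were below all WT libraries, and the difference did not pass (-0.37 ± 0.10, adjusted p = 0.069). It passed with DESeq2 (adjusted p = 0.016).

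The glucose transporter gene of the set did not separate the groups. Slc2a1, which encodes the glucose transporter GLUT1, stood at 210 and 289 CPM in KO1 and KO2, against 248, 173 and 238 CPM in WT1, WT2 and WT3. KO2 was the highest library and KO1 lay inside the WT range (log2 fold change 0.18 ± 0.20, adjusted p = 0.61), and without KO2 the value was -0.07.

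In upper glycolysis, 3 of 11 genes rose and 0 fell, against 3.25% and 3.99% of all genes tested. A positive log2 fold change was found for 9 of the 11, against 49.9% of all genes tested. Aldoa, the main aldolase gene outside liver and brain, cleaves fructose bisphosphate into triose phosphates. Aldoa (ENSMUSG00000030695, chromosome 7, 126795234 to 126800751) stood at 735 and 612 CPM in KO1 and KO2, against 437, 453 and 481 CPM in WT1, WT2 and WT3. Every KO library was above every WT library, with a log2 fold change of 0.56 ± 0.11 (SE, adjusted p = 0.036). The call was lost without KO1 (0.42, adjusted p = 0.053), without WT1 (0.53), without WT2 (0.55), without WT3 (0.60) and with the length and GC offset (0.46 ± 0.11, adjusted p = 0.064).

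Tpi1 encodes triosephosphate isomerase, the next enzyme of the pathway. Tpi1 (ENSMUSG00000023456, chromosome 6, 124810586 to 124814296) stood at 211 and 192 CPM in KO1 and KO2, against 148, 150 and 150 CPM in WT1, WT2 and WT3. The WT libraries were nearly level and both KO libraries were above them (log2 fold change 0.43 ± 0.08, SE, adjusted p = 0.033). This call, too, was lost without KO1 (0.36, adjusted p = 0.051), without WT1 (0.43), without WT2 (0.44), without WT3 (0.44) and with the length and GC offset (0.34, adjusted p = 0.074).

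Pfkfb4 encodes a bifunctional enzyme that makes and breaks down fructose 2,6-bisphosphate, the activator of phosphofructokinase. Pfkfb4 (ENSMUSG00000025648, chromosome 9, 108991778 to 109032228) stood at 4.75 and 5.5 CPM in KO1 and KO2, against 3.06, 2.55 and 2.79 CPM in WT1, WT2 and WT3. The groups did not overlap (log2 fold change 0.87 ± 0.20, SE, adjusted p = 0.047). It lost its call without KO2 (0.76, adjusted p = 0.093), without WT1 (0.94), without WT2 (0.81), without WT3 (0.87), with library totals alone (adjusted p = 0.053) and with the length and GC offset (0.90, adjusted p = 0.058). Its paralog Pfkfb3, the form known to drive glycolysis in sprouting endothelium, was at 357 and 386 CPM in KO libraries and at 431, 382 and 378 CPM in WT libraries. These values overlapped (-0.10 ± 0.10, adjusted p = 0.60), and with the length and GC offset the value was 0.03.

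Hexokinase commits glucose to the cell. Hk2, its inducible form, stood at 3.31 and 3.77 CPM in KO1 and KO2, against 2.07, 1.09 and 1.39 CPM in WT1, WT2 and WT3. Both KO libraries were above all WT libraries, and the log2 fold change of 1.22 ± 0.32 did not pass (adjusted p = 0.067). It passed with DESeq2 (adjusted p = 0.0076) and with no filter on low counts (adjusted p = 0.044). Hk1, the constitutive form, was at 209 and 196 CPM in KO libraries and at 182, 183 and 173 CPM in WT libraries (0.18 ± 0.08, adjusted p = 0.24).

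Phosphofructokinase, the main control point of the pathway, is built from the products of 3 genes, none of which passed. Pfkm stood at 29.3 and 32.7 CPM in KO libraries, below all WT libraries at 41.9, 39.1 and 42.7 CPM (log2 fold change -0.41 ± 0.10, adjusted p = 0.054). Pfkl stood at 120 and 90.2 CPM in KO libraries, against 90.1, 88.6 and 85.4 CPM in WT libraries, so that KO2 was level with the highest WT library (0.26 ± 0.13, adjusted p = 0.26). Pfkp overlapped between the groups, from 182 to 216 CPM in KO and from 147 to 186 CPM in WT (0.21 ± 0.13, adjusted p = 0.36). Pfkm missed the threshold narrowly, and passed without KO2 (-0.50), with no filter on low counts (-0.42), with a filter at 1 CPM (-0.40) and with DESeq2 (adjusted p = 0.0073). Pfkl passed without KO2 (0.44), and stood at 0.03 without KO1.

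Of the remaining upper genes, Gpi1, the glucose phosphate isomerase, stood at 217 and 212 CPM in KO libraries, above the WT libraries at 184, 177 and 189 CPM (log2 fold change 0.23 ± 0.08, adjusted p = 0.13). The brain aldolase Aldoc had only 32 and 14 reads in KO libraries and 9, 25 and 8 reads in WT libraries. Its log2 fold change of 0.85 ± 0.71 carries a wide error (adjusted p = 0.50), and it was 0.08 without KO1.

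Lower glycolysis runs from glyceraldehyde phosphate to pyruvate. Of its 6 genes, 0 passed the test in either direction, against 7.24% of all genes tested. Even so, 5 of the 6 had both KO libraries above all WT libraries, against 22.8% of all genes tested. Gapdh stood at 412 and 382 CPM in KO1 and KO2, against 303, 301 and 329 CPM in WT1, WT2 and WT3 (log2 fold change 0.35 ± 0.09, adjusted p = 0.068). Eno1, the widely expressed enolase, stood at 262 and 168 CPM in KO libraries, against 137, 136 and 132 CPM in WT libraries (0.67 ± 0.18, adjusted p = 0.066). The distance between the KO libraries was large for Eno1, which had a log2 fold change of 0.31 without KO1 and passed without KO2 (0.95, adjusted p = 0.0027) and with the length and GC offset (0.70, adjusted p = 0.049).

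The other lower genes had smaller differences. Pgam1, a phosphoglycerate mutase, had a log2 fold change of 0.27 ± 0.09, Pgk1, phosphoglycerate kinase, of 0.24 ± 0.08, and Pkm, pyruvate kinase, of 0.17 ± 0.09, with adjusted p from 0.13 to 0.27. Eno2, the neuronal enolase, overlapped, at 1.77 and 1.27 CPM in KO libraries and 1.27, 1.44 and 2.41 CPM in WT libraries (-0.16 ± 0.38). Every enzymatic step from hexokinase to pyruvate kinase thus had at least 1 gene with both KO libraries above all WT libraries. At the phosphofructokinase step that was Pfkl by a narrow margin, while Pfkm lay below all WT libraries. Steps with several isoenzymes had several genes that could meet this. Of the 17 enzyme genes of the set, 12 lay above and 1 below, against 22.8% and 22.5% of all genes tested. Of the 18 other glycolytic and gluconeogenic enzymes tested, 3 lay above and 6 below. The reads of the 17 glycolytic enzyme genes summed to 3379 and 3130 CPM in KO1 and KO2, against 2666, 2630 and 2721 CPM in WT1, WT2 and WT3.

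Several of these genes share sequence with other annotated genes, as copies elsewhere or as genes that overlap them in place. Overlapping genes shared 22.3% of the exon bases of Bnip3, 15.3% of Pkm, 11.5% of Gpi1 and 10.7% of Pfkm. With reads of 50 bases, the share of a gene's 50-base windows found in transcripts of another GENCODE gene was 53.9% for Pgk1, 47.2% for Bnip3, 36.2% for Pgam1, 26% for Eno1, 25.8% for Pkm, 25.1% for Gapdh and 21% for Ldhb. It was 6.4% for Aldoa, 4.2% for Tpi1 and 0% for Egln3, Slc16a3 and Pfkfb4. How reads with several matches were counted is not given in the sources used here, so the levels of the genes with high shares are uncertain.

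**Figure D2:**
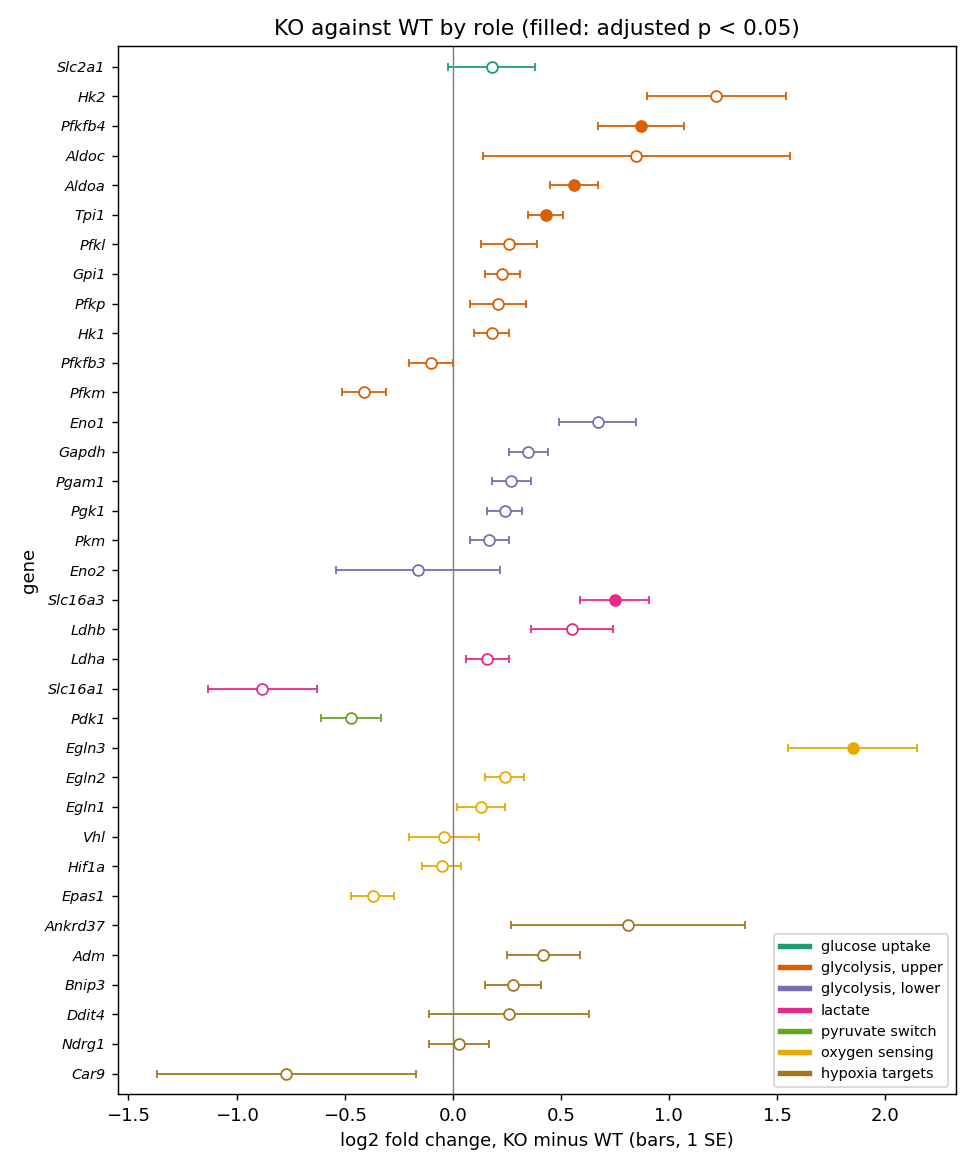
Log2 fold change, KO minus WT (horizontal axis), of the 35 genes, grouped down the page by role, each with its SE as a bar. Points are filled for the called genes: Pfkfb4, Aldoa, Tpi1, Slc16a3 and Egln3, all to the right of 0.

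The lactate transporters Slc16a3 and Slc16a1 stood on opposite sides of the WT libraries, and only the first passed. Slc16a3 encodes MCT4, which is known as the exporter of cells that make much lactate and as a hypoxia target. Slc16a3 (ENSMUSG00000025161, chromosome 11, 120948480 to 120960868) stood at 17.9 and 19.4 CPM in KO1 and KO2, against 9.15, 11.9 and 12.2 CPM in WT1, WT2 and WT3. Both KO libraries were above all WT libraries, with a log2 fold change of 0.75 ± 0.16 (SE, adjusted p = 0.039), or 1.68-fold. It passed only narrowly with the length and GC offset, at 0.79 (adjusted p = 0.05 as rounded, just under the threshold). It lost its call without KO2 (0.69, adjusted p = 0.062), without WT1 (0.63), without WT2 (0.80) and without WT3 (0.82).

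Slc16a1 encodes MCT1, a transporter of higher affinity that carries lactate either way. Slc16a1 stood at 184 and 318 CPM in KO1 and KO2, against 551, 387 and 446 CPM in WT1, WT2 and WT3. Both KO libraries were below all WT libraries, but they were far apart, and the log2 fold change of -0.88 ± 0.25 did not pass (adjusted p = 0.083). It was -1.33 without KO2 and passed there (adjusted p = 0.016), and -0.54 without KO1. It also passed with DESeq2 (adjusted p = 0.0032). Per kilobase of exon, the level of Slc16a1 was 12.4 and 19.7 times that of Slc16a3 in KO1 and KO2, and 72.3, 39.2 and 43.8 times in WT1, WT2 and WT3.

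Ldha, the lactate dehydrogenase subunit that favours lactate formation, stood at 783 and 850 CPM in KO1 and KO2, against 691, 736 and 771 CPM in WT1, WT2 and WT3. The libraries did not overlap, yet the difference was small (log2 fold change 0.16 ± 0.10, adjusted p = 0.38). Ldhb, the subunit that favours pyruvate, stood at 6.41 and 9.06 CPM in KO libraries, against 5.13, 5.53 and 5.16 CPM in WT libraries (0.55 ± 0.19, adjusted p = 0.13). It passed without KO1 (0.78, adjusted p = 0.041). Pdk1, a kinase that shuts pyruvate out of the mitochondrial pyruvate dehydrogenase and a well-known HIF target, had a negative log2 fold change. Pdk1 stood at 20.5 and 17.8 CPM in KO libraries, below WT libraries at 28.3, 22.9 and 28.2 CPM (-0.47 ± 0.14, adjusted p = 0.085), and passed with DESeq2 (adjusted p = 0.028).

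Of the 6 further hypoxia targets, 0 passed in either direction, against 7.24% of all genes tested. Adm, which encodes the vasoactive and lymphangiogenic peptide adrenomedullin, stood at 30.6 and 45.6 CPM in KO libraries, against 29, 27.4 and 28.8 CPM in WT libraries (log2 fold change 0.42 ± 0.17, adjusted p = 0.16). KO1 was close to the WT libraries and KO2 stood clear of them, and Adm passed without KO1 (0.68, adjusted p = 0.017). Bnip3, a mitophagy receptor, stood at 24.8 and 23.1 CPM in KO libraries, against 17.9, 19.1 and 22.2 CPM in WT libraries (0.28 ± 0.13, adjusted p = 0.21).

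Ndrg1, a stress-responsive gene with the highest CPM of the set, was at 1202 and 1542 CPM in KO libraries and at 1245, 1322 and 1452 CPM in WT libraries, with KO1 the lowest library and KO2 the highest (0.03 ± 0.14, adjusted p = 0.91). Car9, a carbonic anhydrase widely used as a hypoxia marker, was low, at 1.59 and 0.344 CPM in KO1 and KO2, against 1.35, 1.7 and 1.89 CPM in WT1, WT2 and WT3. Only KO2 was below the WT range, so Car9 passed without KO1 (-2.25, adjusted p = 0.03) and was at -0.05 without KO2. Ddit4, an inhibitor of mTORC1, stayed at 2.12 and 2.06 CPM in KO libraries, within the WT range of 1.07 to 2.37 CPM.

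Ankrd37, a small ankyrin repeat gene used as a hypoxia marker, had 40 and 25 reads in KO libraries and 18, 15 and 26 reads in WT libraries. Its log2 fold change was 0.81 ± 0.54 (adjusted p = 0.39), from 0.38 to 1.22 with 1 library left out. Ankrd37 shares 26.4% of its exon bases with Lrp2bp on the opposite strand, and the library kit does not mark strand, so its reads cannot be assigned with certainty.

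Levels of different genes were compared per kilobase of exon, which is a length-scaled CPM. In every library the highest genes of the set were Ldha, Ndrg1 and Aldoa. Aldoa stood at 252 and 210 in KO1 and KO2, against 150, 156 and 165 in WT1, WT2 and WT3. Ldha stood at 237 and 257 in KO libraries and at 209, 222 and 233 in WT libraries, so Aldoa was above Ldha in KO1 and below it in the other 4 libraries. Ldha exceeded Ldhb by 57.9 and 44.5 times in KO libraries, against 63.9, 63.2 and 70.9 times in WT libraries. Hk1 exceeded Hk2 by 44.3 and 36.4 times in KO libraries and by 61.6, 117 and 87.5 times in WT libraries.

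In the regulator and sensor families, the minor forms Pfkfb4 and Egln3 were closer to their major forms in KO libraries. Pfkfb3 exceeded Pfkfb4 by 48.5 and 45.2 times in KO1 and KO2, and by 90.9, 96.8 and 87.4 times in WT1, WT2 and WT3. Egln1 exceeded Egln3 by 3.34 and 6.55 times in KO libraries, against 16.3, 12.8 and 14.4 times in WT libraries. Among the prolyl hydroxylases the order Egln2, Egln1, Egln3 was kept in all 5 libraries. The gap between Hif1a and Epas1 was wider in KO libraries: Hif1a exceeded Epas1 by 3.64 and 3.82 times in KO libraries and by 2.9, 2.88 and 3.21 times in WT libraries. Of 12 pairs compared in this way, 9 had ratios that did not overlap between the groups, among them those given above. The ratios of Pfkp to Pfkl, Aldoa to Aldoc and Egln2 to Egln1 overlapped. No test was made of any ratio, and the pairs share genes and libraries. They include called genes such as Egln3, Pfkfb4 and Slc16a3. The share over gene pairs at large was not computed, so the count is a description only. Of single genes tested, both KO libraries lay above all WT libraries in 22.8% and below them in 22.5%.

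**Figure D3:**
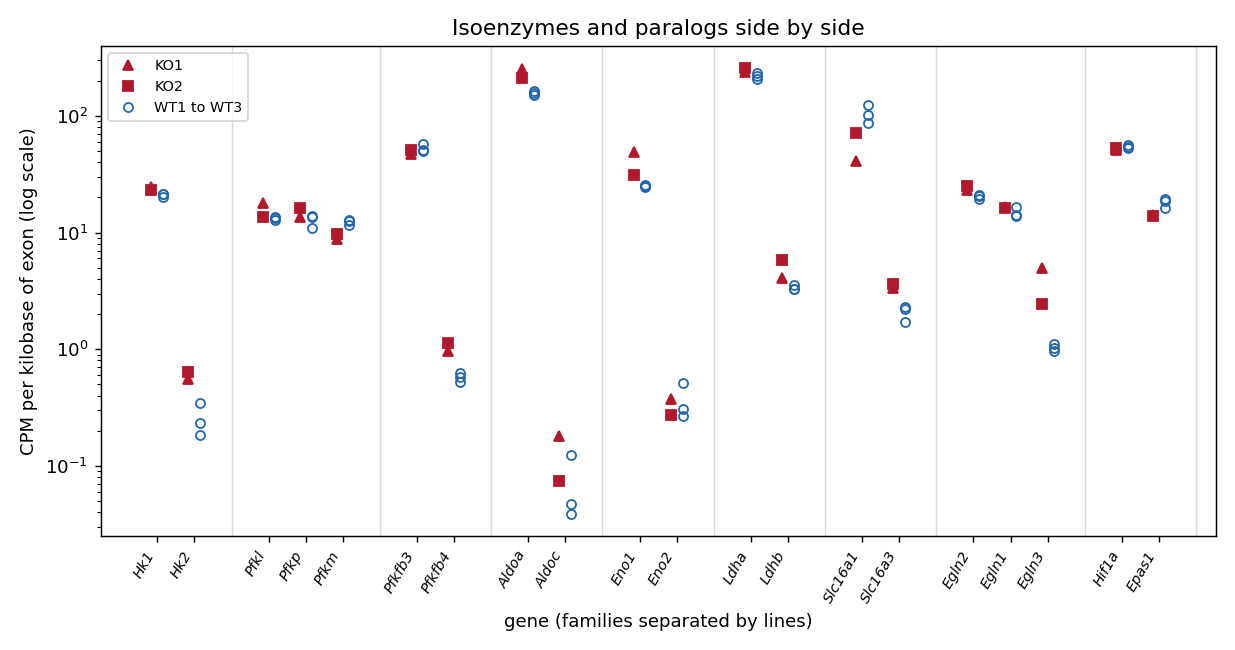
Level of isoenzymes and paralogs in each library (vertical axis, CPM per kilobase of exon, log scale; within each gene KO libraries are the red symbols at left and WT libraries the blue circles at right). Both KO libraries lie above all WT libraries for Hk1, Hk2, Pfkl, Pfkfb4, Aldoa, Eno1, Ldha, Ldhb, Slc16a3, Egln2 and Egln3. They lie below all WT libraries for Pfkm, Slc16a1 and Epas1. Over all genes tested, the shares are 22.8% above and 22.5% below.

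In 6 further lists, the median log2 fold change of the 115 genes tested was -0.05. Of these genes, 4 were called higher in KO and 5 lower, close to the shares over all genes tested (3.25% and 3.99%). These calls also depended on single libraries: without WT1, WT2 and WT3 in turn, 1, 1 and 0 genes were higher and 0, 0 and 1 lower, and without KO1 the counts were 6 and 11. Of 18 other glycolytic and gluconeogenic enzymes, 0 passed and the median was -0.17. The smallest p-values belonged to Bpgm, the bisphosphoglycerate mutase (0.42 ± 0.11, adjusted p = 0.069), the pyruvate carboxylase gene Pcx (-0.40 ± 0.14), the phosphatase gene Pgam5 (0.30 ± 0.13) and Pfkfb2 (-0.58 ± 0.25). Of 8 pentose phosphate genes, 0 passed, and H6pd (-0.53 ± 0.14), Tkt (-0.37 ± 0.11), Rpia (0.70 ± 0.26) and Taldo1 (0.18 ± 0.08) had the smallest p-values.

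Of 18 other sugar and monocarboxylate carriers, 0 rose and 2 fell, against 3.25% and 3.99% of all genes tested. The median was -0.29. Slc2a3, which encodes the glucose transporter GLUT3, fell to 2.52 and 3.09 CPM in KO1 and KO2, against 5.34, 5.94 and 5.6 CPM in WT1, WT2 and WT3 (log2 fold change -1.0 ± 0.19, SE, adjusted p = 0.033). Slc2a13, a myo-inositol transporter, fell to 26.8 and 33.7 CPM in KO libraries, against 65.2, 45.1 and 56.5 CPM in WT libraries (-0.88 ± 0.18, adjusted p = 0.037). Slc2a12 (-0.62 ± 0.15, adjusted p = 0.055) and the monocarboxylate transporter gene Slc16a7 (-0.66 ± 0.18, adjusted p = 0.069) came next and did not pass. Bsg, which encodes basigin, the chaperone of MCT1 and MCT4, and which was chosen after its values were seen, was at 316 and 340 CPM in KO libraries and at 275, 273 and 281 CPM in WT libraries (0.25 ± 0.09, adjusted p = 0.12).

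Of 11 genes of the pyruvate dehydrogenase complex and its control, 1 rose and 1 fell, against 3.25% and 3.99% of all genes. Pdk3, a kinase that shuts the complex off, rose to 38.2 and 40.6 CPM in KO libraries, against 29.5, 29.1 and 27.9 CPM in WT libraries (0.45 ± 0.09, adjusted p = 0.034). Pdpr, which regulates the opposing phosphatase, fell to 6.72 and 6.21 CPM in KO libraries, against 17.1, 12.4 and 12.1 CPM in WT libraries (-1.10 ± 0.19, adjusted p = 0.025). Pdp1, a catalytic subunit of that phosphatase, had 0.42 ± 0.12 (adjusted p = 0.082), and Pdk4 had -0.32 ± 0.19.

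Of 12 other HIF subunits and regulators, 0 rose and 1 fell, against 3.25% and 3.99% of all genes. The gene that fell was Ep300, a histone acetyltransferase and HIF coactivator, at 24.2 and 19.8 CPM in KO libraries, against 39.6, 38.1 and 31.6 CPM in WT libraries (-0.73 ± 0.14, adjusted p = 0.034). Arnt, the HIF beta subunit, had -0.34 ± 0.10 (adjusted p = 0.085), Siah1a 0.36 ± 0.11, and Hif1an, which encodes the asparaginyl hydroxylase of HIF, -0.28 ± 0.11.

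Of 48 other genes known to rise in hypoxia, 3 rose and 1 fell, against 3.25% and 3.99% of all genes tested. The median was 0.10. P4ha2, a collagen prolyl hydroxylase subunit, rose to 44.2 and 40 CPM in KO libraries, against 18.9, 23 and 24.9 CPM in WT libraries (0.92 ± 0.13, adjusted p = 0.019). Trib3, a stress-induced pseudokinase gene, rose to 13.3 and 7.41 CPM in KO libraries, against 4.03, 4.76 and 3.7 CPM in WT libraries (1.31 ± 0.26, adjusted p = 0.036). Pdgfb, a growth factor gene of endothelium, rose to 100 and 84 CPM in KO libraries, against 33.8, 60.1 and 43.8 CPM in WT libraries (1.00 ± 0.22, adjusted p = 0.047).

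Hmox1, which encodes heme oxygenase 1, fell to 31.7 and 39.1 CPM in KO libraries, against 175, 197 and 84.4 CPM in WT libraries (-2.10 ± 0.36, adjusted p = 0.025). Vegfa, a classical HIF target chosen for mention after its values were seen, was at 54.6 and 92.3 CPM in KO libraries and at 64.3, 82.3 and 93.6 CPM in WT libraries (-0.12 ± 0.24, adjusted p = 0.79).

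**Figure D4:**
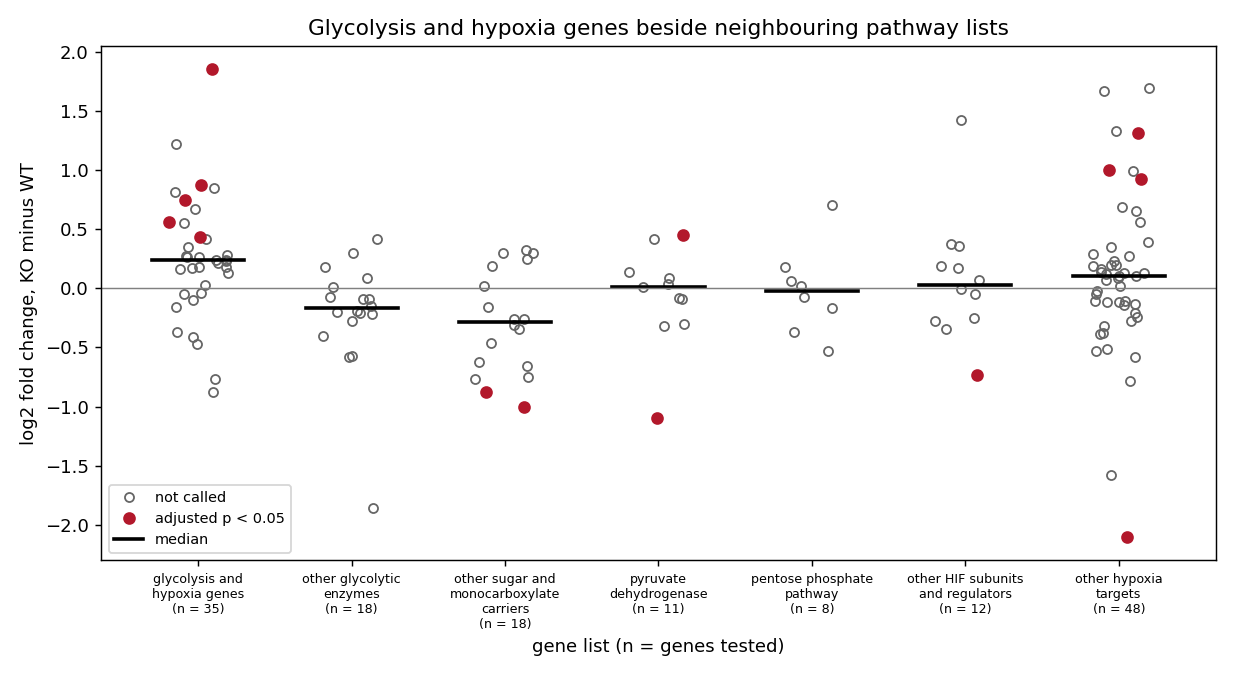
Log2 fold change, KO minus WT (vertical axis), of each tested gene of the 35 and of 6 neighbouring lists, 1 point per gene with a black line at the list's median; red points passed adjusted p 0.05. The median of the 35 genes is 0.24, and the medians of the other lists run from -0.29 to 0.10.

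Transcripts of other cell types also differed between these libraries. Of 16 blood endothelial markers tested, 9 rose and 1 fell (median 1.14). Over all genes tested, 3.25% were called higher and 3.99% lower. The summed level of that list was 7415 and 7733 CPM in KO1 and KO2, and 6151 to 6610 CPM in WT libraries, and Gja5 alone of the list was at 0 in any library (WT3). Among 12 markers of pericytes and smooth muscle, 3 passed as higher and 0 as lower, with sums of 209 and 165 CPM in KO libraries and 131 to 165 CPM in WT libraries. Of 14 immediate early and heat shock genes, which cell isolation can induce, 3 rose and 0 fell, with sums of 11869 and 16747 CPM in KO libraries and 11472 to 13160 CPM in WT libraries. The 11 fibroblastic reticular markers summed to 1130 and 559 CPM in KO libraries, against 412 to 557 CPM in WT libraries, and 0 of them passed.

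Of 3 adipocyte markers tested, Fabp4 and Pparg rose. The third, Car3, was also called higher, but it met the filter on low counts through the KO libraries, with only 1 WT library reaching it. Nothing is read from the call of Car3. Sums over the whole list were 430 and 527 CPM in KO libraries and 223 to 274 CPM in WT libraries. The defining adipocyte gene Adipoq was at 0.0731 and 0 CPM in KO libraries and at 0 in every WT library, and Lep was at 0 in all 5. Fabp4 and Pparg are also known from endothelium. Markers of leukocytes and red cells summed to 11.6 and 8.2 CPM in KO libraries and 4.37 to 9.38 CPM in WT libraries, and 1 of 9 tested was called. It was Adgre1, at 0.274 and 0.344 CPM in KO libraries and 0 in every WT library, which passed the filter on low counts only through the KO libraries, so nothing is read from its call. Of 12 LEC identity genes, 3 rose (Ccl21a, Mmrn1 and Sox18) and 1 fell (Prox1), against 3.25% and 3.99% of all genes tested. The part of these transcripts in the values of the glycolysis and hypoxia genes was not tested.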

How the data were processed

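The file as deposited gives raw counts of reads for each Ensembl gene in each library, per the file headers. Tools named in the submitters' processing notes are HTSeq 0.6.1, TopHat2 2.0.14, Bowtie2 2.1.0 and bcl2fastq 2.17.1.14, with the build mm10. Settings, annotation release and the treatment of reads with several matches: not given in the sources used here. Per the labels' protocols, SMART-Seq v4 cDNA was tagmented with Nextera XT and read as single 50-base reads. Reads were PCR-amplified and carry no molecular identifiers, so they are not separate molecules. Names, positions and exon lengths come from GENCODE M21 (27648 of 27843 identifiers matched).

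Counts were tested with edgeR 4.0.16 in R 4.3.3: filterByExpr (minimum count 10), TMM, robust quasi-likelihood fit over all 15874 genes kept, KO against WT, Benjamini-Hochberg adjustment, threshold 0.05. SE is the log2 fold change over the square root of F. TMM factors were 0.9742 to 1.028. The procedure was checked on simulated data. Adjusted p-values are from this test unless DESeq2 1.42.0 is named. Alternatives included limma-voom 3.58.1 and an offset for exon length and transcript GC (loess, span 0.5). List counts are of genes that passed the filter.

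Full values were set for called members, the 6 largest changes, Slc2a1, Pfkfb3, Ldha, Hif1a, Epas1 and Vhl, and for up to 4 genes per other list with the smallest p. Values of the remaining members go beyond that rule and were chosen after they were seen. The members and lists were chosen with earlier results of these data known. The replicate number did not enter the main model.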

Additional observations from a re-analysis of the deposited data

How the results depend on the processing

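The median of the 35 genes stayed positive under all alternatives run, at 0.25 with the replicate block, 0.21 with the length and GC offset and 0.21 to 0.25 with 1 library left out. The count of members called was less stable. Higher calls were 8 with DESeq2, 8 at a threshold of 0.1, 3 with the length and GC offset, 0 with the replicate block and 0 to 5 with 1 library left out. Lower calls were 1 unfiltered, 1 with the 1 CPM filter, 4 with DESeq2, 4 at a threshold of 0.1 and 0 to 2 with 1 library left out. Over all genes, higher and lower calls were 1204 and 1457 with DESeq2, 1188 and 1358 at a threshold of 0.1, and 0 and 0 with the replicate block. No KO library shares the number of WT3, so the replicate block in effect sets WT3 aside. It leaves little from which to estimate spread, so its lack of calls says little about any gene. The length and GC offset gave 343 lower calls. With 1 library left out, higher calls ran from 2 to 784 and lower calls from 9 to 1125, the fewest without WT3. In the 6 other pathway lists, recomputed by a choice made after seeing the data, higher and lower calls were 9 and 12 with DESeq2, 9 and 11 at a threshold of 0.1 and 0 and 0 with the replicate block. Lower calls there were 8 unfiltered and 2 with the length and GC offset, and leaving out 1 library gave 0 to 6 higher and 0 to 11 lower. Signs turned for Slc2a1 (-0.07 without KO2, the range with 1 library left out being -0.07 to 0.39), Pfkfb3 (0.03) and Hif1a (0.06) with the length and GC offset, and Vhl (0.01 without WT2 and 0.17 without KO2, with a range of -0.29 to 0.17). Apart from fewer samples or genes tested, the cause was not tested. Libraries with the same number did not deviate together (correlations of 0.048 and -0.052). With only 2 KO libraries, whose deviations from their mean mirror each other, this cannot decide whether the numbers pair libraries. Where a KO library was left out, the other was assumed to vary like the WT libraries. Counts were low for Aldoc and Ankrd37, with 8 to 40 reads a library.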

Other observations

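Genes of dividing cells, which often have high glycolysis, were also read. Of 9 tested, 0 passed in either direction, against 7.24% of all genes, and their median was -0.28 (log2 fold change). The 2 named here were chosen after their values were seen. Mki67, a marker of cycling cells, stood at 7.1 and 4.4 CPM in KO1 and KO2, against 9.63, 10.7 and 10 CPM in WT1, WT2 and WT3 (-0.81 ± 0.22, adjusted p = 0.071). Pcna, a DNA replication clamp, had the opposite sign and did not pass either, at 62.7 and 69.4 CPM in KO libraries and 50.1, 47.8 and 55.7 CPM in WT libraries (0.37 ± 0.10, adjusted p = 0.075).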
